A study of Mus musculus with 59 samples.

Results

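Bdnf, Vgf and 5 further genes of activity-regulated secretion and its signalling (Scg2, Pcsk1, Nrn1, Ntrk2 and Creb1) were followed across the genotype and drug groups of a mouse prefrontal cortex RNA-seq series. The 7 genes were taken by name, with earlier results of these data known. Each was found among the 51456 gene identifiers of the deposited table and among the 16919 genes with enough signal to test (a mean value of 10 or more across the libraries). The series compared C57BL/6J mice heterozygous for Ank2 (HT), the gene of the membrane scaffold ankyrin-B, with wild-type mice (WT). Pups of both genotypes had received vehicle, the serotonin reuptake inhibitor fluoxetine or the mood stabilizer lithium through the mother's milk from postnatal day 3 to 24, and tissue was taken on day 25. Vehicle, fluoxetine and lithium had 10 libraries in each genotype, 5 from females and 5 from males, except for WT fluoxetine with 9 libraries, of which 4 were male. The labels name neither the Ank2 allele nor the dose. They do not say which libraries came from littermates, which shared a mother and her dose, so p-values measure the spread between libraries only.

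BDNF is a neurotrophin that neurons release on activity and that signals through the receptor tyrosine kinase TrkB, the product of Ntrk2. Vgf, a neurotrophin-inducible gene, and Scg2 encode granin-family precursors that are stored in dense-core vesicles, and Pcsk1 encodes prohormone convertase 1/3, which cuts such precursors into peptides. Nrn1 encodes neuritin, a membrane-anchored protein that promotes neurite growth. Creb1 encodes the transcription factor CREB, which binds the cyclic AMP response element (CRE) in promoters of activity-dependent genes, Bdnf among them.

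The CRE is shown here in the promoters of the secreted-factor genes that RefSeq's table (GRCm38.p6) covers, because these genes are grouped by their regulation. Windows from 250 bases before to 50 bases after an annotated start were held for 5 of the 7 genes. Vgf and Nrn1 had none. The whole element TGACGTCA, searched on both strands, was found in the windows of Scg2 and Pcsk1, and in 1.79% of all 32851 windows. Of the 7 Bdnf windows, 1 held the shorter TGACG, on the minus strand, as did 20.81% of all windows (every whole element also contains it). Each sequence below gives the 150 bases before the start, from 5′ to 3′ on the strand of the gene, with the whole element, or for Bdnf the shorter match, in capitals.
Bdnf, plus strand, chr2:109692286-109692435: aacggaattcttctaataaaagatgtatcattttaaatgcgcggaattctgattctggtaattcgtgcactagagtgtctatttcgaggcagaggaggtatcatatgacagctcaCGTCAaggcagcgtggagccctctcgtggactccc
Scg2, minus strand, chr1:79440027-79440176: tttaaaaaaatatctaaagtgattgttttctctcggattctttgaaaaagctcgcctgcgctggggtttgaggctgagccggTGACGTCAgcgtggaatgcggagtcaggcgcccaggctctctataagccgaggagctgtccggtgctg
Pcsk1, plus strand, chr13:75089707-75089856: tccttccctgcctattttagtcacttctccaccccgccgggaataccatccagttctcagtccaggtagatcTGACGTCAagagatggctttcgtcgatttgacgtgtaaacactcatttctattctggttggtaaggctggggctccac
The element lay 68 to 61 bases before the start of Scg2 and 78 to 71 bases before that of Pcsk1, which held a further TGACG 50 to 46 bases before the start. The Bdnf match lay 35 to 31 bases before the start. Another Bdnf window held the AP-1 motif TGANTCA, 152 to 146 bases before its start, a motif present in 7.81% of all windows. No match to any of these motifs was found in the windows of Ntrk2 and Creb1. These are letter matches in short windows, and nothing was tested on them.

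All values are the authors' normalized values, estimated read counts per gene, taken here as divided by a factor per library. Whether transcript lengths entered the normalization is not given. Library sums of these values ranged from 30294665 to 33772261, with a median of 32312609. Xist and Ddx3y separated all 30 female from all 29 male libraries. Ank2 fitted the genotype labels, at 17431 to 22813 in the 30 HT libraries and 23284 to 35821 in the 29 WT libraries. Excitatory neuron markers were high (Slc17a7 between 34580 and 60470), and the 4 non-neural markers were below the filter. By marker genes of other cell types and regions, 6 libraries lay over 2 log2 units from the median of their own group. HT fluoxetine female replicate 2 differed by 6.19 log2 units for choroid plexus, 3.39 for dentate gyrus and -2.90 for olfactory bulb. The other 5 libraries (HT fluoxetine male 5, HT lithium female 2, HT lithium male 2, WT fluoxetine male 4 and WT lithium male 3) differed in olfactory bulb markers only.

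Per kilobase of the longest transcript, the mean over all libraries was highest for Nrn1 (3741.5 normalized value per kb), followed by Scg2 (2943.3), Ntrk2 (2666.3), Vgf (1389.0), Pcsk1 (382.3), Creb1 (252.4) and Bdnf (233.5). At this scale, over all libraries together, Bdnf and Creb1 had the lowest values and Nrn1 the highest. The order of Bdnf and Creb1 depends on the drug, since the Bdnf mean was higher with lithium. The means of the 6 groups spanned 1.43-fold for Vgf, 1.38-fold for Bdnf, 1.30-fold for Pcsk1 and 1.28-fold for Scg2, against 1.17-fold for Creb1 and 1.11-fold each for Ntrk2 and Nrn1. Nrn1 (chr13:36725361-36735131, minus strand) overlaps Fars2 on the opposite strand, whose mean value was 4.86% of that of Nrn1. Bdnf (chr2:109674700-109727007, plus strand) overlaps an antisense gene at 0.62% of its value. The kit marked strand, but whether the counting used strand is not given in the sources used here.

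Lithium raised Bdnf and Vgf in both genotypes, each by about 1.35-fold, and raised Pcsk1 in HT mice. Scg2, Nrn1, Ntrk2 and Creb1 did not pass the test with lithium in either genotype. Across all genes tested, 2.22% were called in the WT comparison and 5.01% in the HT comparison (limma, Benjamini-Hochberg adjusted p under 0.05), against 2 of 7 and 3 of 7 genes here. The median log2 change of the 7 was 0.14 in WT and 0.10 in HT mice, beside -0.00047 and -0.0048 for all genes. Because the 7 genes were chosen with earlier results of these data known, these shares and medians are a description, not a test of the set.

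Bdnf was at 871, 745, 866, 917 and 858 in WT vehicle females and at 968, 844, 802, 896 and 943 in WT vehicle males. With lithium it was at 1110, 1261, 1425, 1070 and 1389 in WT females and at 860, 1060, 1282, 1240 and 1151 in WT males. Of the 10 WT lithium libraries, 9 lay above every WT vehicle library. The exception was male replicate 1, which lay below the WT vehicle median. The means were 1184.8 ± 169.4 with lithium and 871.2 ± 65.7 with vehicle (SD, n = 10 each), a log2 change of 0.43 (SE 0.09, 1.35-fold, limma adjusted p = 0.0032).

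In HT mice Bdnf was at 1219, 841, 740, 787 and 898 in vehicle females and at 978, 915, 703, 947 and 795 in vehicle males. With lithium it was at 1127, 1480, 1052, 1232 and 1178 in HT females and at 937, 1339, 1097, 1383 and 1164 in HT males. All 10 lithium libraries lay above the vehicle median, while 4 lay above the highest vehicle library, female replicate 1 at 1219. The means were 1199.0 ± 163.6 and 882.3 ± 148.6 (SD, n = 10 each), a log2 change of 0.45 (SE 0.09, 1.36-fold, limma adjusted p = 0.0019). The groups therefore overlapped in both genotypes, and the vehicle spread was wider in HT mice (coefficient of variation 16.8%, against 7.5% in WT).

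Vgf was at 2714, 2706, 3300, 3490 and 3534 in WT vehicle females and at 3799, 3459, 3571, 3640 and 3425 in WT vehicle males. With lithium the values were 5191, 4635, 5374, 4409 and 5549 in WT females and 3359, 3717, 4393, 4526 and 5096 in WT males. The female groups did not overlap, whereas 3 of 5 lithium males lay above every vehicle male. The log2 change over both sexes was 0.45 (SE 0.07, 1.37-fold, limma adjusted p = 2.41e-04), and by p Vgf ranked 5 among the 16919 genes.

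In HT mice Vgf was at 4270, 3471, 3206, 2981 and 3456 in vehicle females and at 3946, 3742, 3480, 3497 and 3582 in vehicle males. With lithium the values were 5304, 5504, 3989, 4692 and 5348 in HT females and 4585, 4553, 4464, 5561 and 4108 in HT males. Here the male groups did not overlap, and 4 of 5 lithium females lay above every vehicle female. The log2 change was 0.43 (SE 0.07, 1.35-fold, limma adjusted p = 2.71e-04), rank 13 by p.

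**Figure D1:**
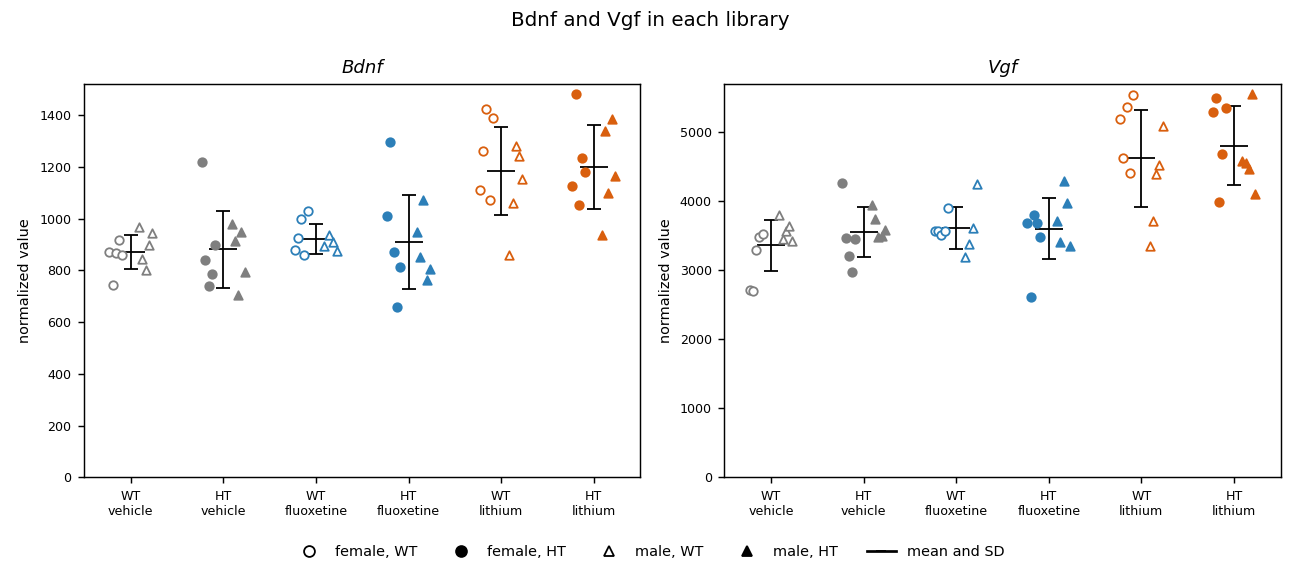
Normalized value (vertical axis, from 0) of Bdnf and Vgf in each library of the 6 genotype and drug groups (horizontal axis). Circles are females, triangles males, open symbols WT and filled symbols HT, with the mean and SD of each group as bars. The 4 vehicle and fluoxetine groups sit at means of 871.2 to 922.3 for Bdnf and 3363.9 to 3619.5 for Vgf, and both lithium groups above them.

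The order of the 6 group means shows the same division. For Bdnf it ran from WT vehicle (871.2) through HT vehicle (882.3), HT fluoxetine (908.6) and WT fluoxetine (922.3) to WT lithium (1184.8) and HT lithium (1199.0). For Vgf the order was the same, from 3363.9 in WT vehicle through 3563.1, 3604.2 and 3619.5 to 4624.9 in WT lithium and 4810.9 in HT lithium. In both orders only the step from WT fluoxetine to WT lithium exceeded the larger SD of the neighbouring groups. The remaining neighbours did not differ beyond their spread.

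Pcsk1, the convertase gene, had higher means with lithium in both genotypes, and passed the test in HT mice only. In HT mice it ranged from 1625 to 2270 with vehicle (median 1770, n = 10) and from 1803 to 2603 with lithium (median 2216, n = 10), and all 10 lithium libraries lay above the vehicle median. The log2 change was 0.28 (SE 0.09, 1.22-fold, limma adjusted p = 0.045). In WT mice the range was 1634 to 2208 with vehicle (median 1766) and 1837 to 2289 with lithium (median 2152), again with all 10 lithium libraries above the vehicle median, and the log2 change was 0.21 (SE 0.09, limma adjusted p = 0.24). The difference between genotypes was 0.07 (95% interval -0.18 to 0.32, limma adjusted p = 0.94). The HT call was near the threshold: it was lost in 17 of 30 alternative settings, with an adjusted p between 0.0083 and 0.092.

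Scg2, the granin relative of Vgf, differed from it with lithium. In WT mice it ranged from 6728 to 9240 with vehicle (median 7511) and from 6816 to 9374 with lithium (median 8548), a log2 change of 0.14 (SE 0.07, limma adjusted p = 0.37). In HT mice the ranges were 5992 to 8615 and 5499 to 8217, with a log2 change of 0.08 (SE 0.07, limma adjusted p = 0.57). Both pairs of ranges overlapped. In WT mice 9 of 10 lithium libraries lay above the vehicle median, and 4 of 5 lithium males lay above every vehicle male. In HT mice 8 of 10 lithium libraries lay above the vehicle median and none above every vehicle library. The step from WT vehicle (7586.5 ± 752.0, SD, n = 10) to WT lithium (8381.0 ± 721.4, SD, n = 10) was the only one between neighbouring group means of Scg2 that exceeded the larger SD.

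Nrn1, Ntrk2 and Creb1 showed log2 changes with lithium of 0.05, 0.01 and 0.05 in WT mice and of 0.10, -0.01 and 0.04 in HT mice. The 95% intervals of Ntrk2 ran from -0.06 to 0.07 in WT and from -0.07 to 0.06 in HT mice, and those of Creb1 from -0.03 to 0.13 and from -0.05 to 0.12. For Nrn1 they were wider, from -0.09 to 0.19 and from -0.04 to 0.24. The BDNF receptor mRNA was thus measured more tightly than that of its ligand.

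**Figure D2:**
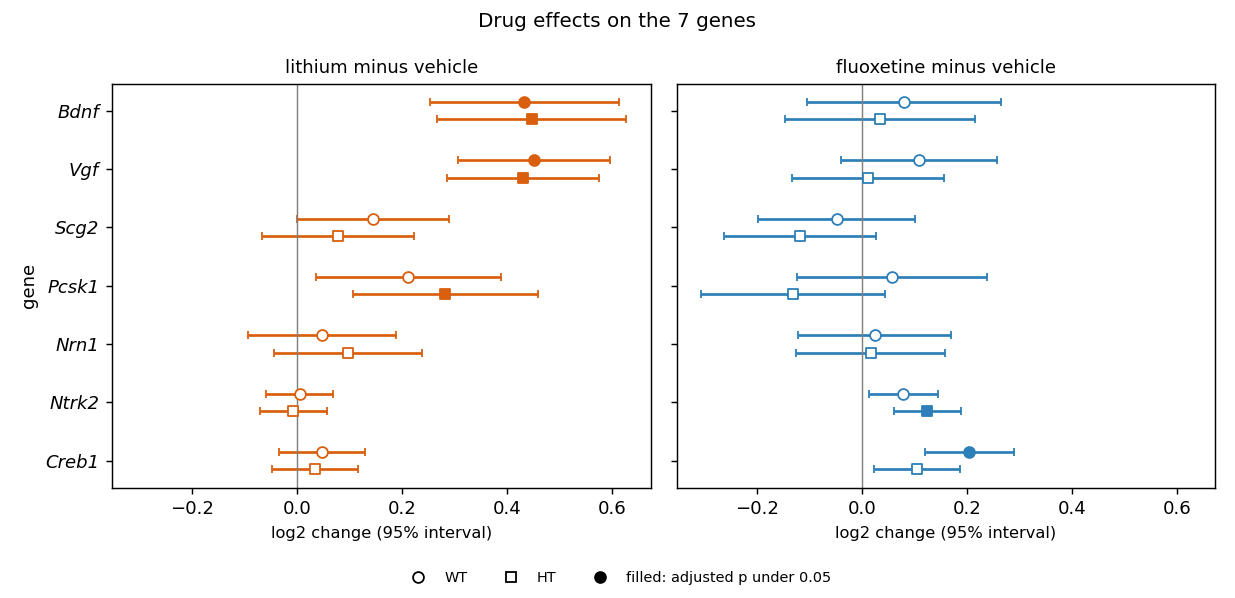
Log2 change against vehicle (horizontal axis) of the 7 genes (vertical axis) with lithium and with fluoxetine, in WT (circles) and HT mice (squares), with 95% intervals. Filled symbols had an adjusted p under 0.05: Bdnf and Vgf in both genotypes and Pcsk1 in HT mice with lithium, Creb1 in WT and Ntrk2 in HT mice with fluoxetine.

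Fluoxetine gave another set of calls. Creb1 rose in WT mice and Ntrk2 in HT mice, both by little, and neither Bdnf nor Vgf passed the test. Fluoxetine changed many genes: 14.8% of all genes tested were called in WT and 14.0% in HT mice, so that 1 of 7 in each genotype is close to the background share. The fluoxetine and lithium comparisons of a genotype use the same vehicle libraries.

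Creb1 was at 2070, 2039, 2204, 2030 and 2019 in WT vehicle females and at 2152, 2004, 2019, 1869 and 1947 in WT vehicle males. With fluoxetine it was at 2427, 2231, 2474, 2182 and 2465 in WT females and at 2392, 2303, 2195 and 2460 in WT males. All 9 fluoxetine libraries lay above the vehicle median and 7 above the highest vehicle library. The log2 change was 0.20 (SE 0.04, 1.15-fold, limma adjusted p = 3.93e-04). With the trend of the values with transcript length and GC content removed, it was 0.06 (limma adjusted p = 0.40), which ends the call. The longest Creb1 transcript has 8364 bases and a GC content of 39.6%.

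In HT mice Creb1 ranged from 1803 to 2370 with vehicle (median 1945) and from 1784 to 2396 with fluoxetine (median 2223), a log2 change of 0.11 (SE 0.04, limma adjusted p = 0.071). HT fluoxetine female replicate 2, the library with choroid plexus and dentate gyrus markers, held the lowest Creb1 value of all 59 libraries, 1784. Without it the log2 change was 0.13 (limma adjusted p = 0.013). By sex, the change was -0.0033 in HT females (SE 0.06, limma adjusted p = 0.98) and 0.22 in HT males (SE 0.06, limma adjusted p = 0.021), where 4 of 5 fluoxetine males lay above every vehicle male. Of all genes, 8.75% were called in HT females and 3.36% in HT males. The difference of the fluoxetine effect between genotypes was -0.10 (SE 0.06, limma adjusted p = 0.72), so a difference between WT and HT mice was not shown.

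Ntrk2 ranged from 20820 to 25080 with vehicle in HT mice (median 22847) and from 23514 to 29107 with fluoxetine (median 24365). All 10 fluoxetine libraries lay above the vehicle median and 8 of the 10 vehicle libraries below every fluoxetine library. The log2 change was 0.12 (SE 0.03, 1.09-fold, limma adjusted p = 0.0050). With the length and GC trend removed it was 0.08 (limma adjusted p = 0.16). In WT mice the change was 0.08 (SE 0.03, limma adjusted p = 0.096), and -0.01 with that trend removed. Between genotypes the fluoxetine effect on Ntrk2 differed by 0.05 (SE 0.05, limma adjusted p = 0.85). A difference between WT and HT mice was thus not shown.

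Bdnf and Vgf did not pass the test with fluoxetine in either genotype. In WT fluoxetine libraries Bdnf ranged from 859 to 1028 (median 908, n = 9) and Vgf from 3192 to 4251 (median 3572, n = 9). In HT fluoxetine libraries Bdnf ranged from 658 to 1296 (median 861) and Vgf from 2616 to 4302 (median 3686). The log2 changes of Bdnf were 0.08 in WT (95% interval -0.10 to 0.27) and 0.03 in HT mice (-0.15 to 0.21). Those of Vgf were 0.11 (-0.04 to 0.26) and 0.01 (-0.13 to 0.16). HT fluoxetine female replicate 2 held the highest Bdnf value of its group (1296) and the lowest Vgf value of all 59 libraries (2616). Without it the HT changes were -0.03 for Bdnf and 0.06 for Vgf.

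Scg2 and Pcsk1 did not pass the test with fluoxetine in HT mice. Pcsk1 ranged from 871 to 2080 (median 1757) and Scg2 from 4862 to 8241 (median 6493), with log2 changes of -0.13 (SE 0.09, limma adjusted p = 0.35) and -0.12 (SE 0.07, limma adjusted p = 0.29). Both lowest values came from female replicate 2, and without it the log2 changes were -0.04 and -0.07. By sex, the HT log2 changes were -0.34 for Pcsk1 and -0.28 for Scg2 in females, and 0.08 and 0.04 in males. Nrn1, whose lowest value of all 59 libraries (5002) came from the same library, had a log2 change of 0.02 in each genotype, and of 0.06 in HT mice without that library.

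**Figure D3:**
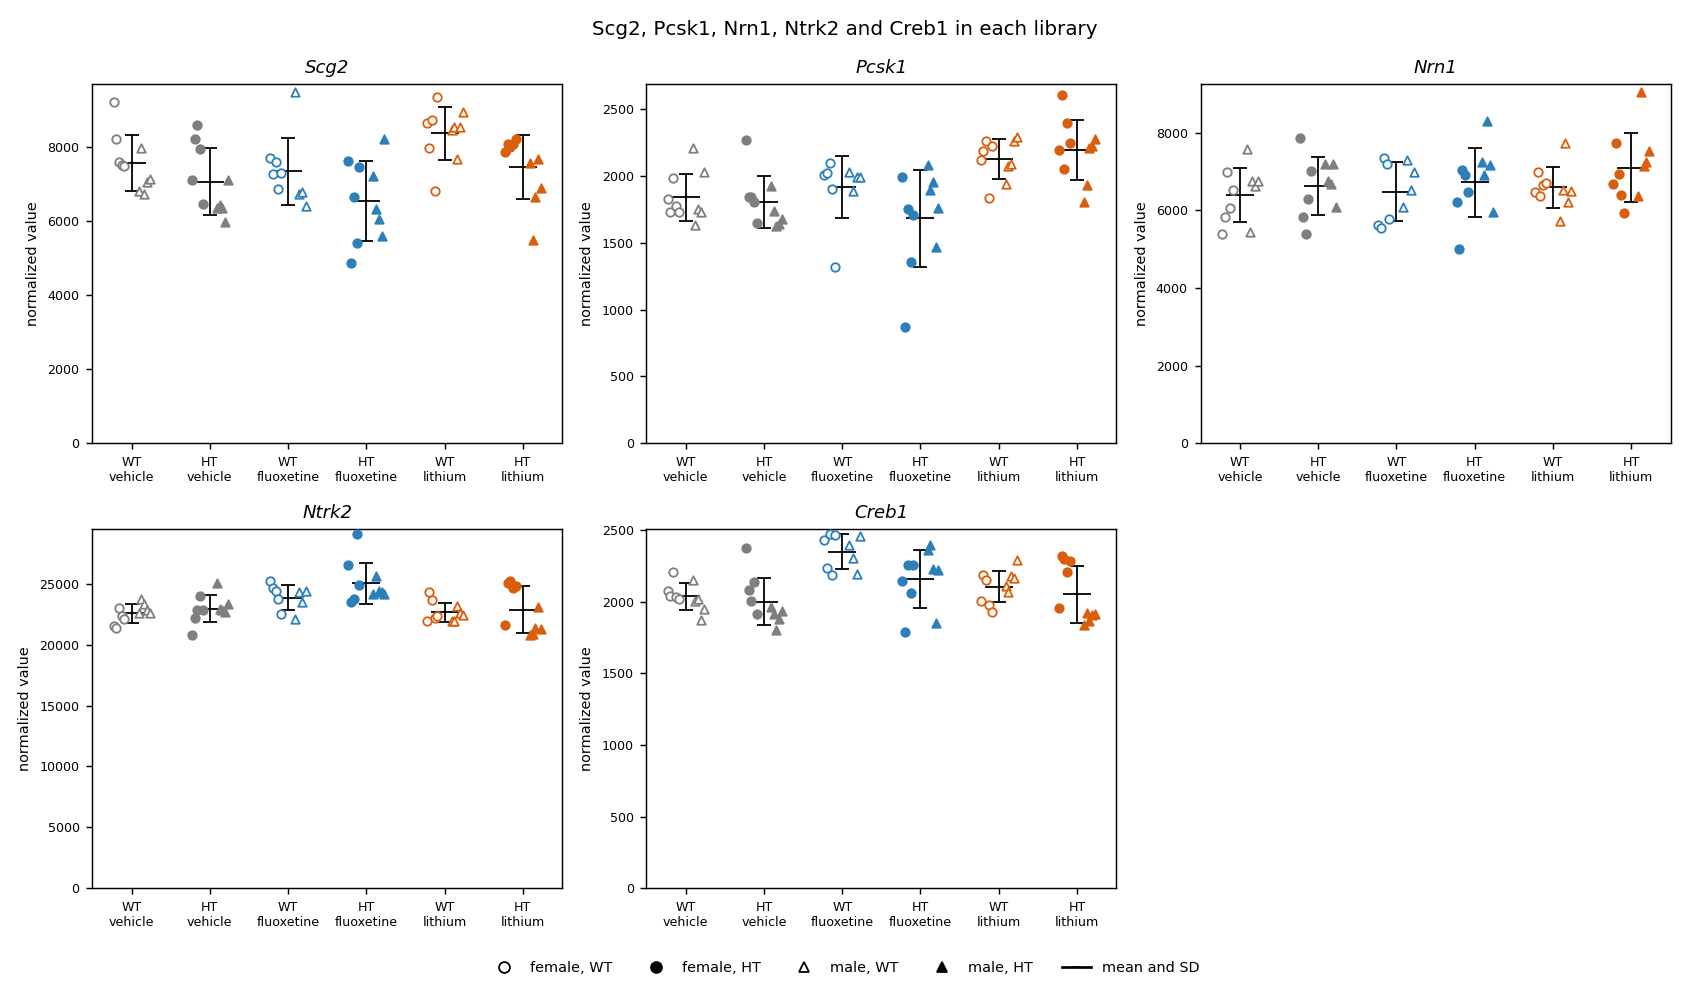
Normalized value (vertical axes, from 0) of Scg2, Pcsk1, Nrn1, Ntrk2 and Creb1 in each library of the 6 groups, with symbols as in the plot of Bdnf and Vgf and the mean and SD of each group as bars. Ranges overlap between all groups, with the lowest Pcsk1 value (871), Scg2 value (4862) and Nrn1 value (5002) in 1 HT fluoxetine female.

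Fluoxetine and lithium were also compared directly. Against lithium, fluoxetine libraries had lower Bdnf and Vgf in both genotypes, and lower Pcsk1 and higher Ntrk2 in HT mice and higher Creb1 in WT mice. In WT mice 3 of 7 genes were called, beside 21.3% of all genes, and in HT mice 4 of 7, beside 13.1%. The log2 differences (fluoxetine minus lithium) of Bdnf were -0.35 in WT (SE 0.09, limma adjusted p = 0.0039) and -0.41 in HT mice (SE 0.09, limma adjusted p = 0.0012). Those of Vgf were -0.34 (SE 0.07, limma adjusted p = 4.81e-04) and -0.42 (SE 0.07, limma adjusted p = 5.65e-05). In HT mice Pcsk1 differed by -0.41 (SE 0.09, limma adjusted p = 8.67e-04), with 7 of 10 lithium libraries above every fluoxetine library, and Ntrk2 by 0.13 (SE 0.03, limma adjusted p = 0.0033). Creb1 differed by 0.16 in WT mice (SE 0.04, limma adjusted p = 0.0046). With the length and GC trend removed, Creb1 (0.01, limma adjusted p = 0.93) and Ntrk2 (0.10, limma adjusted p = 0.057) were no longer called. Scg2 lay just outside the threshold in both genotypes, at -0.19 in WT (limma adjusted p = 0.056) and -0.20 in HT mice (limma adjusted p = 0.060).

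Genotype was compared within each drug. None of the 7 genes was called between HT and WT mice with vehicle, fluoxetine or lithium, beside 0.00591%, 0.0118% and 0.550% of all genes. With vehicle the log2 differences (HT minus WT) ran from -0.11 for Scg2 to 0.08 for Vgf. At an unadjusted p under 0.05 there were 2659 of all 16919 genes with fluoxetine and 2759 with lithium. With fluoxetine these included Creb1 (-0.13, SE 0.04, limma adjusted p = 0.14), Pcsk1 (-0.22, SE 0.09, limma adjusted p = 0.22), Scg2 (-0.18, SE 0.07, limma adjusted p = 0.24) and Ntrk2 (0.07, SE 0.03, limma adjusted p = 0.30). Without HT fluoxetine female replicate 2 the differences were -0.12 for Pcsk1, -0.13 for Scg2 and -0.10 for Creb1. With lithium Scg2 was the only one of the 7 (-0.17, SE 0.07, limma adjusted p = 0.22). The lithium effects on Bdnf and Vgf differed between genotypes by 0.01 (95% interval -0.24 to 0.27) and -0.02 (95% interval -0.23 to 0.18). The differences of the drug effects between genotypes called 0% of all genes for either drug by limma, with 1291 genes for fluoxetine and 1139 for lithium at an unadjusted p under 0.05.

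Sex was a term of every fit. None of the 7 genes was called between males and females over all groups, beside 2.10% of all genes. Nrn1 was 0.10 higher in males and Scg2 0.09 lower on the log2 scale (SE 0.04 each, limma adjusted p = 0.19 and 0.21). The estimated lithium effect on Vgf was higher in females, where the log2 change was 0.68 (SE 0.10, 1.60-fold) in WT and 0.52 (SE 0.10) in HT mice, than in males, where it was 0.22 (SE 0.10) in WT and 0.35 (SE 0.10) in HT mice. The sex difference of the effect (male minus female) was -0.31 (SE 0.10, unadjusted p = 0.0032, limma adjusted p = 0.16). Ntrk2 differed in the same test by -0.16 (SE 0.05, unadjusted p = 7.22e-04, limma adjusted p = 0.10), with 0.05 in WT females, -0.04 in WT males, 0.11 in HT females and -0.12 in HT males. For the fluoxetine effect the sex difference had an unadjusted p under 0.05 for Scg2 (0.23, SE 0.10, limma adjusted p = 0.34), Creb1 (0.13, SE 0.06, limma adjusted p = 0.34) and Ntrk2 (-0.10, SE 0.05, limma adjusted p = 0.35). None of these differences passed the test after adjustment. The sex differences of the fluoxetine and of the lithium effect called 0% of all genes by limma, with 2146 and 2500 genes at an unadjusted p under 0.05.

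The 7 genes were set beside lists of the pathways they belong to. One list held 30 activity-induced transcription and signalling genes such as Arc, Fos and Egr1. With lithium 20 of 30 rose in WT mice and 5 of 30 in HT mice, with median log2 changes of 0.58 and 0.30. Of all genes tested, 1.33% rose in WT and 2.75% in HT mice. Arc, which encodes a synaptic plasticity protein, rose 3.02-fold in WT mice (log2 change 1.59, SE 0.30, limma adjusted p = 0.0013). The phosphatase gene Dusp6 rose 1.51-fold in WT (limma adjusted p = 4.36e-04) and 1.39-fold in HT mice (limma adjusted p = 0.0038). The other 4 genes that rose in HT mice were Per1 (1.30-fold), Gadd45b (1.34-fold), Egr3 (1.26-fold) and Nr4a3 (1.47-fold), of which Nr4a3 was named after its value was seen. With fluoxetine 12 of 30 fell in HT mice, among them Fos (log2 change -1.28, limma adjusted p = 1.62e-04) and Egr2 (-1.47, limma adjusted p = 3.13e-04), while 1 rose and 1 fell in WT mice. Of all genes, 7.38% fell with fluoxetine in HT mice. The log2 changes of Bdnf and Vgf in those HT mice were 0.03 and 0.01. Without the 6 libraries that stood apart, the counts were 23 and 5 with lithium and 15 lower in HT fluoxetine mice. These counts of calls do not show that a drug effect differed between genotypes. In the fit of all libraries, limma called that difference for 0% of all genes with either drug.

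The level of this list in a library, the mean log2 deviation of its genes from their medians, was 0.55 ± 0.20 in WT lithium, 0.28 ± 0.28 in HT lithium, -0.04 ± 0.20 in WT vehicle and 0.02 ± 0.29 in HT vehicle (SD, n = 10 each). It was -0.18 ± 0.23 in WT fluoxetine (SD, n = 9) and -0.35 ± 0.11 in HT fluoxetine (SD, n = 10). HT vehicle female replicate 1, the vehicle library with the highest Bdnf value and the highest Vgf value, also had the highest level of this list among vehicle libraries, 0.66. Within groups, over the 59 libraries, the level was weakly related to Bdnf (Pearson r = 0.33, Spearman rho = 0.27), Vgf (r = 0.34, rho = 0.33) and Scg2 (r = 0.33, rho = 0.28). After adjustment over 7 relations, the permutation p was 0.05 for each r, and 0.1, 0.08 and 0.1 for rho. Without the 2 libraries farthest from the median level, r was 0.26, 0.35 and 0.30. Pcsk1 had r = 0.21 and rho = 0.31 (adjusted permutation p = 0.12 for r and 0.08 for rho). For Ntrk2, Nrn1 and Creb1 r was -0.08, -0.14 and 0.12. The points share a library each, and with it dissection and depth.

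**Figure D4:**
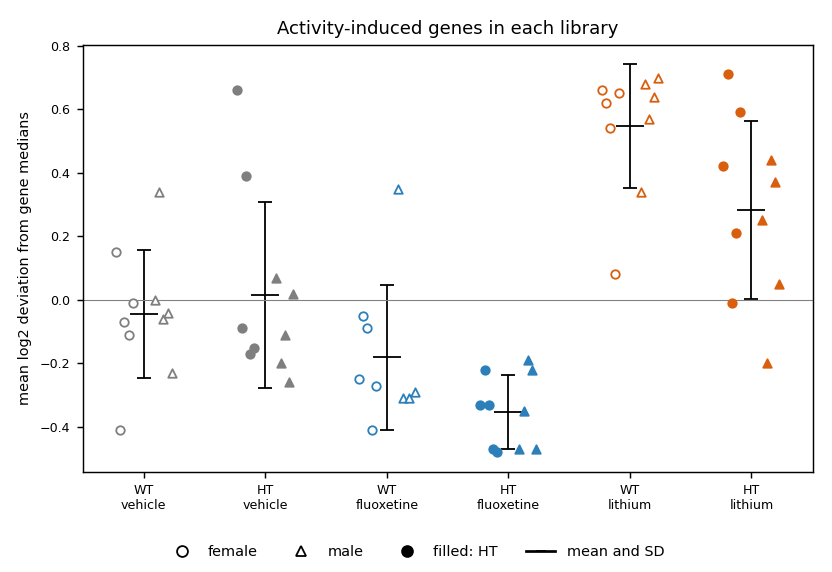
Mean log2 deviation of 30 activity-induced genes from their medians over all libraries (vertical axis) in each library of the 6 groups (horizontal axis), with the mean and SD of each group. WT lithium has the highest mean, 0.55, and HT fluoxetine the lowest, -0.35, with no HT fluoxetine library above -0.19.

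The lists below leave the 7 genes themselves out. Among 10 tested neurotrophin and neurotrophin receptor genes, 3 rose with fluoxetine in WT and 5 in HT mice, and none fell. Of all 16919 genes, 1184 rose and 1316 fell (7.78%) with fluoxetine in WT mice, and 6.63% rose and 7.38% fell in HT mice. Called among the 10 in both genotypes were Sorl1 (1.26-fold in WT, 1.22-fold in HT), Sort1 (1.10-fold and 1.12-fold), both sorting receptors, and the neurotrophin-3 receptor gene Ntrk3 (1.11-fold and 1.13-fold). Sorcs2 (1.15-fold) and Sorcs3 (1.13-fold) were called in HT mice only, of which Sorcs3 was named after its value was seen. With the length and GC trend removed, 1 of the 10 was called in each genotype. With lithium none was called in WT and 2 rose in HT mice, Sorl1 (1.20-fold) and Sorcs3 (1.17-fold). Of 20 granin and peptide-processing genes, lithium raised the granin gene Chgb (1.15-fold, limma adjusted p = 0.023) and lowered Scg5, which encodes the convertase chaperone 7B2 (0.91-fold, limma adjusted p = 0.044), in HT mice. None was called with lithium in WT mice. Of all genes, lithium called 2.22% in WT and 5.01% in HT mice. With fluoxetine Scg5 fell in HT mice (0.89-fold), Pcsk5 rose there (1.22-fold) and Cpd rose in WT mice (1.10-fold). No other of the 20 was called with fluoxetine, beside 14.8% of all genes in WT and 14.0% in HT mice.

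Of 28 further neuropeptide and activity-regulated secreted-factor genes, 3 rose with lithium in WT mice: Ccn1 (1.89-fold), Tnfaip6 (1.44-fold) and the neuronal pentraxin gene Nptx2 (1.23-fold). None was called with lithium in HT mice. Lithium called 2.22% of all genes in WT and 5.01% in HT mice. With fluoxetine the cortistatin gene Cort fell in both genotypes (0.74-fold in WT, 0.75-fold in HT), and in HT mice Tac1 fell (0.70-fold) and Nptxr rose (1.18-fold). Of all genes tested, 14.8% were called with fluoxetine in WT and 14.0% in HT mice. Of 24 genes of the CREB family, its coactivators and kinases, fluoxetine raised the coactivator gene Crebbp in both genotypes (1.23-fold and 1.18-fold) and lowered Atf4 in both (0.87-fold each). In WT mice it also raised Prkaca (1.08-fold), and in HT mice Crtc1 (1.10-fold). No other of the 24 was called with fluoxetine, beside the 14.8% and 14.0% of all genes. With lithium Atf4 rose in WT mice (by 0.25 on the log2 scale), and the kinase gene Mapk3 fell in WT (0.86-fold) and HT mice (0.86-fold). Of 32 genes of TrkB signalling, the exchange factor gene Sos1 was the only one called with lithium, in WT (1.11-fold) and HT mice (1.15-fold), while fluoxetine raised 8 and lowered 2 in WT mice, Braf (1.14-fold) and Sos1 (1.15-fold) among the higher, and raised 4 in HT mice, Akt1 (1.07-fold), Frs2 (1.09-fold), Ptpn11 (1.06-fold) and Pik3cb (1.07-fold). Of all 16919 genes, 1184 were higher and 7.78% lower in WT mice, and 6.63% higher and 7.38% lower in HT mice. With the length and GC trend removed, fluoxetine raised 1 in WT and raised 2 and lowered 1 in HT mice.

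Markers of other cell types gave the following beside these results. In a bulk sample, fewer cells of a type and less RNA per cell cannot be told apart. With lithium none of 5 excitatory neuron, 5 astrocyte, 6 oligodendrocyte, 5 microglia, 5 choroid plexus, 5 blood, 6 olfactory bulb, 6 striatum and 5 dentate gyrus markers was called in either genotype. The summed excitatory markers ranged from 109700 to 159800 in WT vehicle and from 115400 to 154300 in WT lithium libraries, and from 123700 to 159200 and 136700 to 174600 in HT mice. Of 6 inhibitory neuron markers Pvalb rose with lithium (1.37-fold in WT, 1.35-fold in HT), and of 5 endothelial markers Flt1 in HT mice (1.14-fold). With fluoxetine 3 of 5 blood markers fell in WT and 4 of 5 in HT mice, with median log2 changes of -0.57 and -0.71. There, 1 microglia marker rose and 1 fell in each genotype, 1 endothelial marker rose and 1 fell in WT and 2 fell in HT mice, and the excitatory marker Camk2a rose in HT mice (1.21-fold). The part of these markers in the Creb1 and Ntrk2 results was not tested.

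Finally, the 7 genes were compared with each other across libraries, as deviations of log2 values from the mean of the library's own group of genotype, drug and sex, so that the group means play no part. Of 21 pairs over 59 libraries, 6 had an adjusted permutation p for Pearson's r under 0.05. The closest pair was Pcsk1 and Creb1 (r = 0.59, rho = 0.56, permutation p adjusted over 21 pairs = 0.0057 for r, r = 0.61 without the 2 libraries farthest from the Pcsk1 median). Scg2 rose with Pcsk1 (r = 0.44, rho = 0.32, adjusted permutation p = 0.033), but was lower where Nrn1 was higher (r = -0.42, rho = -0.51, adjusted permutation p = 0.020, r = -0.57 without 2 libraries). The remaining pairs were Vgf with Nrn1 (r = 0.43, rho = 0.36, adjusted permutation p = 0.020 for r), Vgf with Pcsk1 (r = 0.42, rho = 0.36, adjusted permutation p = 0.020 for r) and Pcsk1 with Nrn1 (r = 0.40, rho = 0.28, adjusted permutation p = 0.039 for r and 0.11 for rho). Without the 2 libraries farthest from the median of the first gene, r fell to 0.33, 0.27 and 0.28 in these pairs and to 0.34 for Scg2 with Pcsk1, whose adjusted permutation p for rho was 0.070.

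Bdnf and Vgf, which shared the lithium response, were related at r = 0.33 (adjusted permutation p = 0.12) and rho = 0.43 (adjusted permutation p = 0.016). HT fluoxetine female replicate 2 had the largest upward Bdnf deviation and the largest downward Vgf deviation of all libraries. Without the 2 libraries farthest from the Bdnf median r was 0.60, and without the 6 libraries that stood apart it was 0.60 as well. The pair Pcsk1 and Creb1, by contrast, had r = 0.47 without those 6 libraries and Scg2 and Nrn1 had r = -0.53. No pair with Bdnf had an adjusted permutation p for r under 0.05. Bdnf and Pcsk1 had the same rho as Bdnf and Vgf (0.43, adjusted permutation p = 0.016), with r = 0.15, or 0.45 without 2 libraries. Bdnf and Nrn1 had r = 0.29, or 0.53 without 2 libraries.

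**Figure D5:**
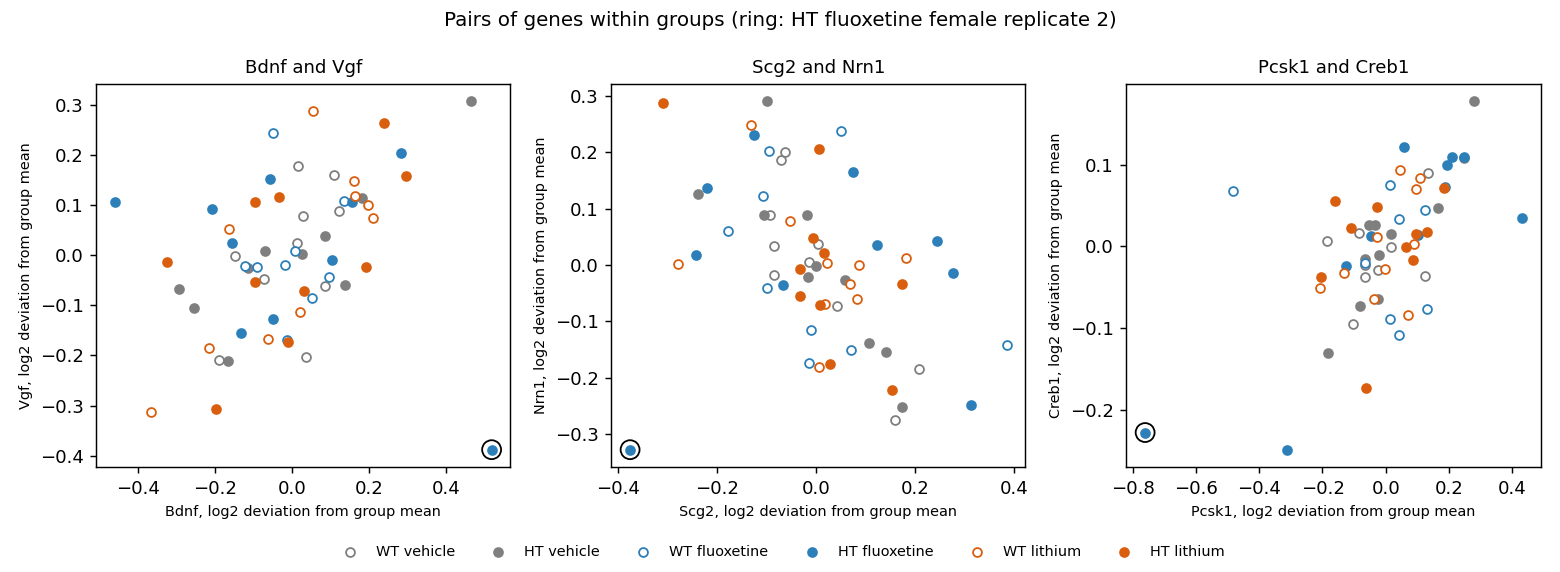
Log2 deviation of each library from the mean of its own group of genotype, drug and sex, for Bdnf and Vgf (left), Scg2 and Nrn1 (middle) and Pcsk1 and Creb1 (right), with 59 libraries in each panel. Open circles are WT and filled circles HT libraries, colours mark the drug, and the ring marks HT fluoxetine female replicate 2, which lies apart in all panels (r = 0.33, -0.42 and 0.59).

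The genes whose within-group deviations were most like those of each member differed between the members. Among 12861 genes with a mean of at least 50, those most like Bdnf over the 59 libraries were Neurod6 (r = 0.74), which is also an excitatory neuron marker, Nr4a3 (r = 0.70) and Eea1 (r = 0.70). Those most like Vgf were Spry2 (r = 0.83), Clstn3 (r = 0.79) and Map6 (r = 0.78). For Scg2 they were Slc8a3 (r = 0.83), Zcchc12 (r = 0.81) and Pcp4l1 (r = 0.80), and for Pcsk1 Nmt2 (r = 0.81), Kcnf1 (r = 0.81) and Osbpl8 (r = 0.80). Nrn1 was closest to Gabra4 (r = 0.88), Trim37 (r = 0.84) and Rnf11 (r = 0.83). Ntrk2 was closest to Dio2 (r = 0.66), Crybb1 (r = 0.66) and Ddah1 (r = 0.59), and Creb1 to Slc35e2 (r = 0.76), Rnf217 (r = 0.74) and Adam10 (r = 0.73). For the same pairs, Spearman rho ran from 0.47 (Ddah1 with Ntrk2) to 0.86 (Gabra4 with Nrn1). Without the 2 libraries farthest from the median of the member, r ran from 0.48 to 0.87 in these pairs. For Nr4a3 with Bdnf, rho was 0.58 and r without 2 libraries was 0.61. The r values given are the highest of many and describe these libraries only.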

How the data were processed

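RNA of the prefrontal cortex was sequenced in 59 libraries (stranded mRNA kit, per the labels' protocols). The deposited table holds signal: estimates of reads per gene, normalized by the authors. They were taken as scaled with 1 factor for each library, and whether transcript lengths entered the scaling is not given. The submitters' processing notes name DESeq2 1.19.11, Salmon 0.11.2 and R 3.6.0, and the build GRCm38, without settings. Read counts could not be recovered, so no count test was used. Library totals were 30294665 to 33772261 normalized units, and these do not give the depth in reads. Of 51456 identifiers, 51285 matched GENCODE vM21 gene models, which gave symbols, positions, lengths and GC content, and 0.0033% of the summed values had none.

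Groups came from the labels. Values were analysed as log2(value + 1), and a fold change on this scale understates that of genes with low values. Genes with a mean value of 10 or more (16919) entered a robust limma-trend fit (limma 3.58.1, R 4.3.3) with 12 group means and 47 residual degrees of freedom. Contrasts gave both sexes equal weight, tests were two-sided, and calls had a Benjamini-Hochberg adjusted p under 0.05 over all genes in each of 14 comparisons. Standard errors and 95% intervals come from the fit. Correlations used within-group deviations and 100000 permutations, in Python 3.11.15 with SciPy 1.17.1, NumPy 2.4.6 and pandas 2.3.3, with plots by matplotlib 3.10.9. The fit was tested on simulated data.

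The genes named were the 7 members, up to 4 called genes with the smallest p of each of 6 gene lists and 12 marker lists (63 genes) in a comparison, and the 3 genes with the highest r to each member. Predicted genes were left out there. One gene that the rule names is not reported here. The members, lists and tests were chosen with earlier results of these data known. Alternatives were the pseudocount, the filter, rescaling to equal totals, fitting only the groups compared, a replicate block, removal of the length and GC trend, a fit without the robust option, leaving out each library, and, chosen after seeing the data, leaving out the 6 libraries that stood apart.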

Additional observations from a re-analysis of the deposited data

Results flagged for a closer look

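In 8 of 84 groups of 4 or 5 libraries (7 genes in the 12 groups of genotype, drug and sex), a single library lay farther from the others than Dixon's 95% limit. Chance gives about 1 in 20 groups, or 4.2 here.

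Vgf was at 2616 in HT fluoxetine female replicate 2, against 3481 to 3804 in the other females of the group. This is the library with the choroid plexus and dentate gyrus markers. Vgf was at 3903 in WT fluoxetine female replicate 5 (others 3517 to 3576), which also had the low Pcsk1 value of 1318 (others 1900 to 2098). Scg2 was at 9494 in WT fluoxetine male replicate 1 (others 6421 to 6790). Without this male, 2 members were called between WT fluoxetine and vehicle and 5 between WT fluoxetine and lithium. Of all 16919 genes, leaving out 1 library called 2047 to 2582 and 2990 to 3648 in these comparisons.

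Ntrk2 was at 25639 in HT fluoxetine male replicate 2 (others 24118 to 24407), at 21645 in HT lithium female replicate 1 (others 24687 to 25226) and at 23127 in HT lithium male replicate 4 (others 20759 to 21327). Both HT lithium values lay between those of the other 4 females and the other 4 males, and the other 4 females were all above the other 4 males. Xist and Ddx3y matched the sex labels of both libraries. Creb1 was at 2204 in WT vehicle female replicate 3 (others 2019 to 2070).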

How the results depend on the processing

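The 98 changes (7 genes in 14 comparisons) were recomputed under alternatives, which gave 3724 values. Of these, 3683 stayed on the same side of the threshold, 21 lost a call, 20 gained one and 0 reversed a called direction. The 3683 include uncalled changes whose sign turned. For example, the genotype difference of the fluoxetine effect on Nrn1 kept its sign in 34 of 49 alternatives. The lithium calls of Bdnf and Vgf held in all 30 alternatives of each genotype, with adjusted p between 3.6e-05 and 0.01 in WT and between 2e-05 and 0.0094 in HT mice. With the length and GC trend removed, 0 members were called with fluoxetine in WT and 0 in HT mice, and the cause was not tested. Without the 6 libraries that stood apart, 2 were called with fluoxetine in HT mice, Ntrk2 and Creb1 (adjusted p = 0.021). The main fit called 14.0% of all genes in that comparison. Leaving out 1 library gave 1 to 2 members with fluoxetine in WT mice (2 without male replicate 1, where Ntrk2 joined) and 1 to 2 in HT mice (2 without fluoxetine female 2, fluoxetine male 4 or vehicle female 1, where Creb1 joined). It gave 3 to 5 between fluoxetine and lithium in WT mice. Over all genes, it gave 2047 to 2582 with fluoxetine in WT and 1863 to 2716 in HT mice. Between the drugs in WT mice it gave 2990 to 3648 genes. Pcsk1 with lithium in WT mice was called when only the groups compared were fitted (adjusted p = 0.031), and in HT mice it was lost without a filter (0.083) and with equal totals (0.063).

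Replicate numbers did not pair libraries: the mean correlation of same-numbered libraries across groups was 0.015 (145 pairs, -0.35 to 0.56) against -0.0035 for other numbers. With a replicate block, 1 member was called with fluoxetine and 2 with lithium in WT mice, 1 and 3 in HT mice, 3 and 5 between the drugs in WT and HT mice, and 0 between genotypes. Beside these, the main fit called 14.8% and 2.22% of all genes in WT mice and 14.0% and 5.01% in HT mice. Between the drugs it called 21.3% and 13.1%. The block was not fitted for males against females, because numbers were counted within each sex.

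Counts over all genes moved more. With the length and GC trend removed, fluoxetine called 1064 genes in WT mice instead of 2500. Without a filter, lithium called 212 instead of 376 in WT and 448 instead of 847 in HT mice, sex 172 instead of 355, and genotype with vehicle 4 instead of 1. Leaving out 1 library gave 214 to 435 and 356 to 1597 genes for lithium and 199 to 1011 for sex. HT against WT mice with lithium gave 93 genes, but 31 without a filter, 39 with the trend removed, 174 without the libraries that stood apart, 241 with equal totals, 449 with only the groups compared and 15 to 141 leaving out 1 library. With fluoxetine that comparison gave 2 genes, but 4, 5 and 326 with the trend removed, with only the groups compared and without the libraries that stood apart, and 1 to 132 leaving out 1 library. Fluoxetine against lithium in HT mice gave 1460 instead of 2209 with only the groups compared. The sex difference of the lithium effect gave 0 genes, but 1 with equal totals, 87 with only the groups compared, 406 without the libraries that stood apart and up to 26 leaving out 1 library, and sex gave 206 without those libraries. The genotype differences of the drug effects gave 1 gene for fluoxetine without those libraries, and 1 for lithium with equal totals and up to 5 leaving out 1 library. Of 42 recomputed correlations between members, 14 moved by more than the spread and 0 reversed a called sign.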
